A study of Homo sapiens with 6 samples.

Results

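Of 181135 sites of open chromatin listed for K562 cells, 3167 (1.75%) carried a peak in both libraries of untreated cells and in no library of cells treated with PMA for 6 or 72 h. These sites were selected by peak calls alone: each overlaps, by 1 base or more, a peak in both 0 h lists and none in the 4 lists of treated cells. They make up 6.29% of the 50344 sites that had peaks in both of the 0 h libraries. Because the peak calls of all 6 libraries chose them, their lower signal after treatment is a property of the choice and is given as a description only. Their position in the genome, their clustering and the genes beside them were not used to choose them.

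ATAC-seq uses a transposase that inserts sequencing adapters into accessible DNA, so the reads over a site reflect how often it was open. Accessible sites are promoters, which lie at gene starts, and enhancers and other elements, which can lie far from the genes they act on. K562 is a human line from a chronic myelogenous leukaemia with an erythroid-type programme, in which GATA1, TAL1, LDB1 and their partners act on the globin and red cell membrane genes. PMA, a phorbol ester, switches on protein kinase C, and K562 cells treated with it take on megakaryocyte features.

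The groups were wild-type K562 cells before treatment (0 h) and after 6 h or 72 h with 25 nM PMA, each with 2 libraries made by the Omni-ATAC protocol. The medium of treated cells was replaced at 24 h and at 48 h, and all groups were a single line. The labels do not say whether the libraries of a group came from separate cultures, so p-values measure the spread between these libraries, which may be technical. Counts over all sites came to between 12258890 (6 h replicate 1) and 35548737 (72 h replicate 2) per library. A 0 h peak lay within 1000 bases of all 10 erythroid-type genes taken as a check of the line, and also of 2 of the 4 genes taken as closed. In these bulk libraries, fewer cells with an open site and less opening per cell cannot be told apart.

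Few of the sites lay on gene starts, and the promoters of those that did were of mixed composition. The RefSeq promoter table (GRCh38.p14) gave 63 start positions inside 57 of the 3167 sites. Of these, 5 windows are shown, each the 250 bases before the start, 5′ to 3′ on the gene's strand, with capitals marking GATAA or its reverse complement TTATC, the core letters of GATA factor motifs. They were chosen after their values were seen: GFI1B and ZFPM1-AS1 because they lie at genes of the erythroid regulator list, HPS4 for its 2 matches, and STX1A and C21orf58 because their sites were the strongest at 0 h among those with a start inside. The windows are GFI1B at chr9:132978444-132978693 (plus strand), ZFPM1-AS1 at chr16:88531054-88531303 (minus strand), HPS4 at chr22:26479489-26479738 (minus strand), STX1A at chr7:73719670-73719919 (minus strand) and C21orf58 at chr21:46320826-46321075 (minus strand).
GFI1B: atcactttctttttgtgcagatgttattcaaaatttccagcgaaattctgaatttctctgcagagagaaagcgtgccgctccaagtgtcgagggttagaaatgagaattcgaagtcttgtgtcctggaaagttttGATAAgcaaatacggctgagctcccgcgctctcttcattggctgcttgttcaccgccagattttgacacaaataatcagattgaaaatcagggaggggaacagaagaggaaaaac
ZFPM1-AS1: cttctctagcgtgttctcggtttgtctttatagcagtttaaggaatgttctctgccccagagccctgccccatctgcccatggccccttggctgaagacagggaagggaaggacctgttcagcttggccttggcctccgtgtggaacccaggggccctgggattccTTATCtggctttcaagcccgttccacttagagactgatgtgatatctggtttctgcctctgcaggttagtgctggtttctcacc
HPS4: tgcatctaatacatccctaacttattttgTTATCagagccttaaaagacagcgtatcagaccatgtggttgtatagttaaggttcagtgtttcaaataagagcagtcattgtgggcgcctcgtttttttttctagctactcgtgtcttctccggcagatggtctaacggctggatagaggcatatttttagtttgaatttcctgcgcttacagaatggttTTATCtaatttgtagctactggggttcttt
STX1A: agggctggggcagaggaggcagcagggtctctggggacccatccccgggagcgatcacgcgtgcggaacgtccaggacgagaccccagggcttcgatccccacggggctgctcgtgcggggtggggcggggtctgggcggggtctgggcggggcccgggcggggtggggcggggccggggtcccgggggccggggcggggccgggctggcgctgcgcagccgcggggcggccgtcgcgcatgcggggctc
C21orf58: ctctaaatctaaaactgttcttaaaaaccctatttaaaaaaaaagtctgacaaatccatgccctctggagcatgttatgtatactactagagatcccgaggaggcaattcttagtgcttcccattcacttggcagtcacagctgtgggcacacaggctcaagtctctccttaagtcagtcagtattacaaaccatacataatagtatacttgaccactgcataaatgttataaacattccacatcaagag

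GFI1B encodes a transcriptional repressor of the erythroid and megakaryocyte lineages. Its window had a GC content of 42.8% and 1 GATAA match. ZFPM1-AS1 is a long noncoding RNA that starts inside ZFPM1, the gene of the GATA1 cofactor FOG1, and its window also held 1 match. HPS4 encodes a subunit of a complex for making lysosome-related organelles, and its window had 39.6% GC. STX1A encodes a syntaxin of vesicle fusion, and its window had 80.8% GC, 31 CG dinucleotides and no GATAA. C21orf58 had 38.8% GC and 1 CG. The windows therefore span AT-rich and GC-rich starts.

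The site over the STX1A start had 18.1 and 18.2 CPM (counts scaled to 1e+06 per library, with TMM factors) in the 0 h libraries, 11.9 and 10.5 after 6 h and 6.55 and 6.77 after 72 h. The C21orf58 site had 19.2 and 16.8 CPM at 0 h, 4.52 and 4.97 after 6 h and 4.22 and 4.08 after 72 h. The HPS4 site had 10.5 and 11.3 CPM at 0 h, 5.63 and 5.92 after 6 h and 2.80 and 3.21 after 72 h. At each of the 3 sites both libraries of each treated group lay below both 0 h libraries, a direction set by the choice. This held at 96.7% of the 3167 sites at 6 h and 99.1% at 72 h, against 31.8% and 36.6% of all sites.

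Over the 300 bases from 250 before to 50 after the start, the 63 windows had a median GC content of 60.0% and a median of 9 CG dinucleotides. All 34943 RefSeq windows had 58.7% and 14, and the 14343 windows whose start lay in a site with peaks in all 6 libraries had 66.3% and 27. Counting both strands, GATAA was in 27.0% of the 63 windows, against 22.8% of all windows and 12.8% of those in sites with 6 peaks. The CACCC-type motif CCACACCC, bound by KLF1 and its relatives, was in 5 windows (7.94%, against 3.28% of all), and the AP-1 motif TGANTCA in 1 (1.59%, against 7.72%). GGGCGG, the SP-type motif, was in 52.4%, against 44.9% of all windows and 73.6% of those in sites with 6 peaks. The E-box CAGCTG was in 17.5% (17.9% of all windows) and the RUNX motif TGTGGT also in 17.5% (13.1%). The ETS motif ACAGGAA was in 6.35% (7.07%) and the NF-Y motif CCAAT in 31.7% (34.6%). Some genes give several overlapping windows, and a match is a run of letters, not a bound site.

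At 0 h the sites were of low to moderate strength. The mean 0 h CPM had a median of 3.98, with quartiles of 2.92 and 5.76, a 95th percentile of 11.6 and a highest value of 56.0. Of the 3167 sites, 228 exceeded 10 CPM and 32 exceeded 20 CPM. Across sites the log2(CPM + 0.5) values of the 0 h libraries correlated with r = 0.874, a description over sites that share the same pair of libraries. The median width was 558 bases (200 to 1892), against 879 for the 35800 sites that had a peak in all 6 libraries and 588 over the whole list.

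The authors' peak q-values placed the sites in the weaker part of both 0 h lists. The strongest overlapping peak had a median −log10 q of 9.88 in 0 h replicate 1 and 9.64 in 0 h replicate 2. These medians stood at percentiles 31.6 and 30.0 of the 61873 and 69152 peaks listed, where 100 is the strongest. Sites with peaks in all 6 libraries stood at percentiles 69.5 and 73.2. In replicate 1 78.3% of the sites, and in replicate 2 81.7%, were in the weaker 50% of the list. Only 1 site reached the top 10% in replicate 1, and 0 did in replicate 2.

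**Figure D1:**
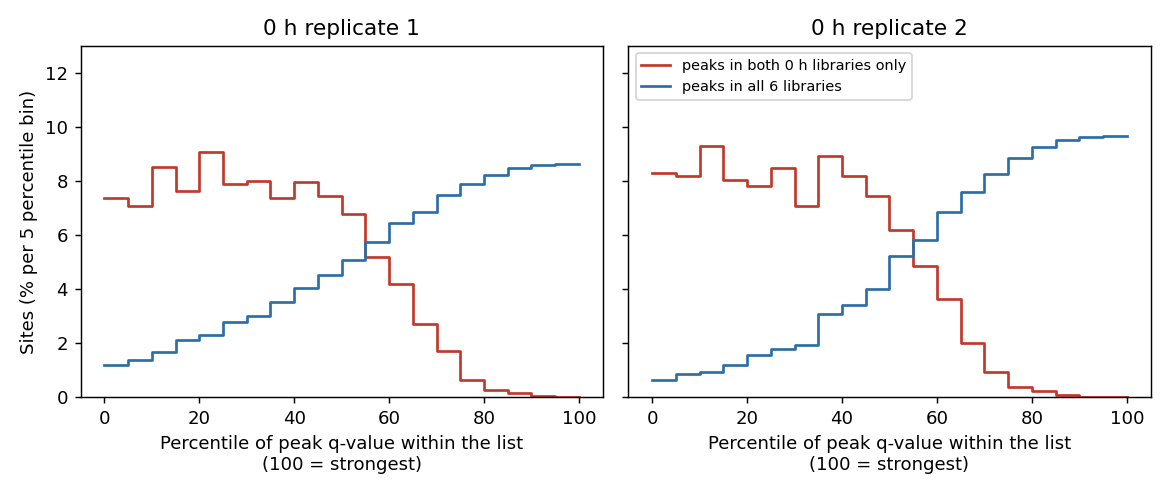
Share of sites (y axis, % per bin of 5 percentiles) by the percentile of their strongest overlapping peak in each 0 h list (x axis). Percentiles rank the authors' q-value. Red marks the sites with peaks at 0 h only and blue those with 6 peaks. The red curves fall off above percentile 60, with medians of 31.6 and 30.0, while the blue curves rise to the right.

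Ranked by the lower −log10 q of the 2 untreated libraries, the strongest 0 h peak was at chr1:205156966-205157854, in DSTYK, a gene for a dual-specificity protein kinase, with a −log10 q of 102 and 79.8. It had 40.3 and 24.0 CPM at 0 h, 3.07 and 1.46 after 6 h and 0.570 and 0.590 after 72 h. Next by the same measure came a site 89082 bases from ETV3 at chr1:157227477-157228298 (70.4 and 68.0) and one in ARV1 at chr1:230984666-230985633 (73.4 and 65.2). The ARV1 site had 26.4 and 18.1 CPM at 0 h, 5.71 and 4.21 after 6 h and 2.07 and 2.24 after 72 h. All 3 of these sites had lower values in every treated library than in either 0 h library. So did 96.7% of the 3167 sites at 6 h and 99.1% at 72 h, against 31.8% and 36.6% of all sites. At the other end of this ranking, the weakest 0 h peaks were on an unplaced scaffold (−log10 q of 7.5 and 2.0), 29245 bases from SYNCRIP on chromosome 6 (2.0 and 6.6) and in ASPN and CENPP on chromosome 9 (18.6 and 2.3). Each of these 3 was weak in 1 of the 0 h libraries and stronger in the other. A further 5 sites were left out of the model because their counts were too low, although each overlapped called peaks.

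On the TMM scale, the typical site had lost most of its reads by 6 h and fell further by 72 h. The size of the later fall depended on the scaling. The median log2 fold change at 72 h against 6 h was −0.80 with TMM and −0.43 with total counts. It was −0.13 with factors from the sites with peaks in all 6 libraries. Median CPM over the 3167 sites was 4.22 and 3.63 in the 0 h libraries, 1.36 and 1.17 after 6 h and 0.777 and 0.708 after 72 h. Together the sites took 1.46% and 1.27% of the reads counted at 0 h, 0.530% and 0.463% after 6 h and 0.406% and 0.357% after 72 h. At the median site 31.6% of the 0 h CPM was left at 6 h and 18.2% at 72 h, and 84.2% of the fall to 72 h was present by 6 h. Per kilobase of site, the median CPM went from 7.09 to 2.37 and then 1.34. Sites with no peak in any library had 2.30, 2.06 and 2.17 CPM per kilobase, and sites with peaks in all 6 had 15.2, 13.7 and 9.59. The 72 h level of the sites was thus lower, per kilobase, than that of sites without peaks, which are narrower (median 210 bases).

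**Figure D2:**
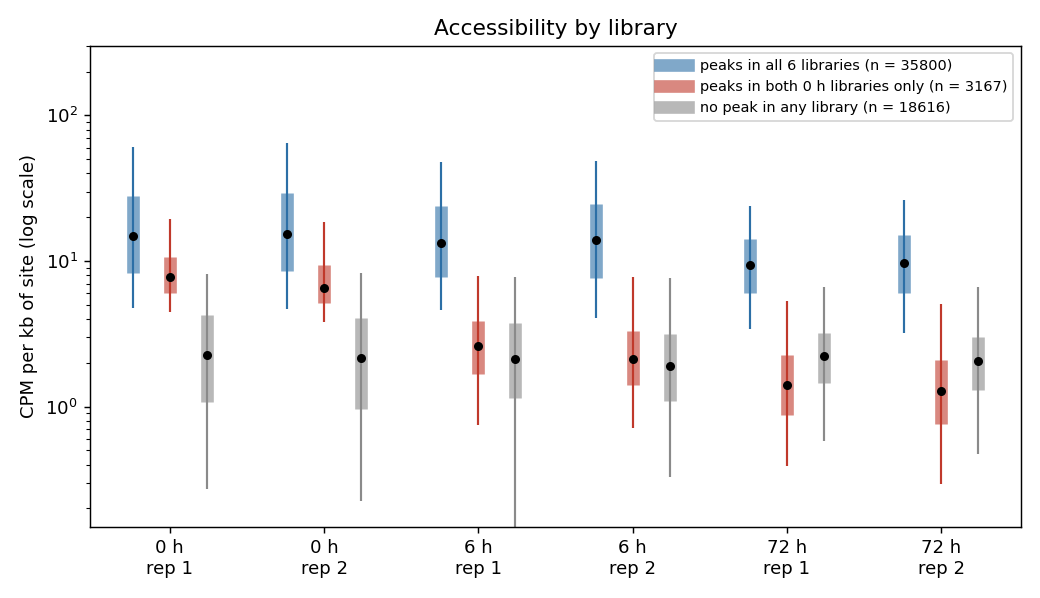
CPM per kilobase of site (y axis, log scale) in each library (x axis). Dots are medians, thick bars the quartiles and thin lines the 5th to 95th percentiles over sites, some of which run below the axis. Sites with peaks at 0 h only (red) lie between the sites with peaks in all 6 libraries (blue) and the sites with no peak (grey) at 0 h. At 72 h the red medians lie below the grey medians.

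The count model gave the same picture in terms fixed by the choice. At 6 h against 0 h, 2697 of the 3162 sites that passed the low count filter were called lower (85.3%, where 16.8% of all 177759 tested sites were) and 0 higher (background 23.4%). At 72 h against 0 h, 3072 were called lower (97.2%, background 29.2%) and 0 higher (background 38.2%). In both comparisons 0 sites were higher at an unadjusted p under 0.05 in edgeR. DESeq2 also called 0 higher (background 17.9% and 28.5%). Other scalings called a few higher. Factors taken from the sites with 6 peaks gave 2 after 6 h and 20 after 72 h (background 29.6% and 57.8%). Total counts gave 0 and 5 (background 26.0% and 48.0%). Sites with 6 peaks are alike in peak calls only: with TMM, 67.8% were called lower and 9.46% higher at 72 h against 0 h. At the 3162 sites, the median log2 fold changes with TMM were −1.68 and −2.45, beside 0.05 and 0.29 for all tested sites. Both comparisons share the 0 h libraries, and nothing is read from these counts.

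In CPM, both 6 h libraries lay below both 0 h libraries at 3062 sites (96.7%, where 31.8% of all sites did), and both 72 h libraries did at 3139 (99.1%, where 36.6% did). A peak had been lost without such a gap at 105 sites at 6 h and at 28 at 72 h. Elsewhere the gap could be small. At MAFK, the gene of a small MAF protein that pairs with NFE2 and BACH1, the site at chr7:1530429-1531009 had 9.68 and 9.75 CPM at 0 h, 8.44 and 8.26 after 6 h and 4.14 and 2.78 after 72 h. Here the 6 h libraries came close to the 0 h libraries although no 6 h peak was called.

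Sites just outside the rule had similar medians at 0 h to those inside it. Their medians were higher at the time point where they had a peak, which follows from the rule and is a description only. A peak in a single treated library kept 135 sites out at 6 h replicate 1, 743 at 6 h replicate 2, 548 at 72 h replicate 1 and 519 at 72 h replicate 2. The first of these sets had a median of 4.45 CPM at 0 h, 2.43 at 6 h and 0.938 at 72 h, and the second 4.68, 2.38 and 1.04. The sets kept out by a 72 h peak had 4.0 and 3.97 CPM at 0 h, 1.56 and 1.41 after 6 h and 1.28 and 1.29 after 72 h. Inside the rule the medians were 3.98, 1.29 and 0.727. Of the 6 h libraries, replicate 1 had 12258890 counts and replicate 2 33634403, and the part of this depth in the peak calls was not tested.

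The question that the choice leaves more open is whether the sites went on changing between 6 and 72 h, since a peak was missing on both sides. It is not fully independent of the choice, because both groups had to lack peaks. Of 3162 tested sites, 1229 were lower at 72 h than at 6 h (38.9%, where 20.9% of all tested sites were called lower) and 30 were higher (0.949%, background 22.1%), by the quasi-likelihood test of edgeR with Benjamini-Hochberg adjustment over all tested sites. The median log2 fold change was −0.80, beside 0.03 for all tested sites and −0.66 for those with 6 peaks. Under a stricter rule (adjusted p below 0.01, change over 1 on the log2 scale), 668 were lower (21.1%, background 8.56%) and 11 higher (0.348%, background 14%). Among all tested sites with both 0 h peaks, which include these, 48.4% were called lower and 5.54% higher, and 19.3% were lower under the stricter rule. Of those with 6 peaks, 57.5% were called lower and 21.5% under the stricter rule. The share called lower was thus below that of both wider sets at an adjusted p under 0.05 and close to both under the stricter rule, and nothing particular to these sites is read from it. Both 72 h libraries lay below both 6 h libraries in CPM at 2094 sites (66.1%, background 35%), above both at 169 (5.34%, background 37.6%), and overlapped at 904.

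The counts in this comparison depended on the libraries and the scaling. Without 72 h replicate 1, 724 sites were called lower (22.9%, where 12.3% of all tested sites were) and 13 higher (0.411%, where 14.9% were). Without 72 h replicate 2, 515 were lower (16.3%, where 11.6% of all were) and 17 higher (0.537%, where 13.3% were). With factors taken from the sites with 6 peaks, 341 were called lower (10.8%, where 5.24% of all were). A further 197 were called higher (6.23%, where 43.3% were), and the median was −0.13. Relative to all tested sites the median was −0.82 with TMM and −1.04 with loess offsets. The other scalings, like TMM, set a factor per library that moves both medians alike. The relative median could not change with them, so it is no sign of stability.

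**Figure D3:**
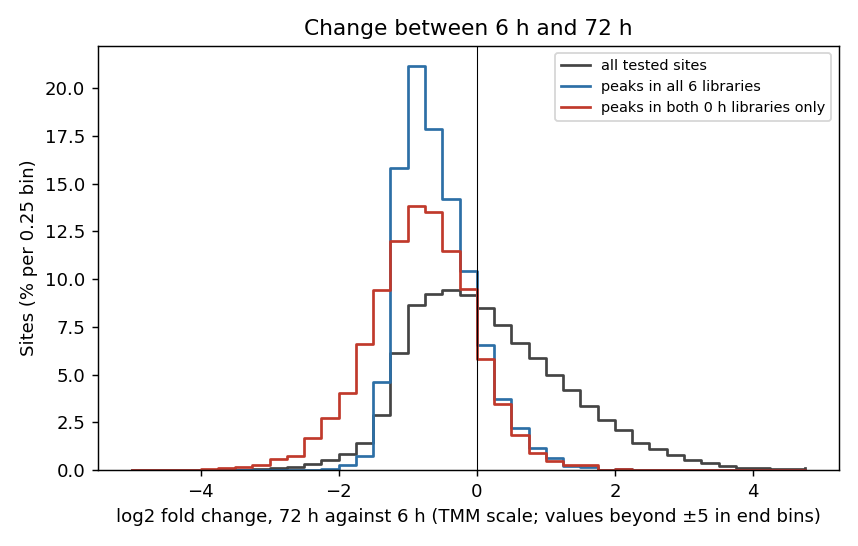
Distribution of the log2 fold change at 72 h against 6 h (x axis, TMM scale) as the share of sites per bin of 0.25 (y axis). Sites with peaks at 0 h only (red, median −0.80) lie left of all tested sites (dark grey, median 0.03). The red sites overlap those with peaks in all 6 libraries (blue, median −0.66), with a longer tail to the left.

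The largest falls from 6 to 72 h were at sites inside or far from genes. A site in ROCK2, a gene for a kinase of the actin cytoskeleton, at chr2:11279302-11279948 had 11.9 and 6.41 CPM at 0 h, 1.19 and 1.30 after 6 h and 0.155 and 0 after 72 h. Its log2 fold change at 72 h against 6 h was −4.0 ± 0.65 (SE, adjusted p = 4.52e-05). The size rests on values near 0: it was −7.91 without 72 h replicate 1 and −2.92 without 72 h replicate 2. A site 660216 bases from UQCRFS1, at chr19:28544509-28545104, went from 14.9 and 12.0 CPM at 0 h to 4.01 and 4.87 after 6 h and 0.362 and 0.236 after 72 h. Its change was −3.90 ± 0.33 (adjusted p = 9.57e-08). Sites in ZFPM2, the gene of the GATA cofactor FOG2, and in CDK5RAP2, a centrosome gene, changed by −3.63 ± 0.67 and −3.56 ± 0.66. At all 4 sites the 72 h libraries were at 0.362 CPM or less. They lay below the 6 h libraries, which the rule that picked these sites required.

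The rises were smaller and left all 4 sites named here below both 0 h libraries, as at 99.1% of the 3167 sites (36.6% of all sites). In MYO5B, the gene of an unconventional myosin, the site at chr18:49880578-49881109 had 5.13 and 1.67 CPM at 0 h, 0.0853 and 0.316 after 6 h and 1.16 and 1.16 after 72 h, a change of 2.22 ± 0.61 from 6 to 72 h (SE, adjusted p = 0.00567). A site 70607 bases from TMEM200A on chromosome 6 had 2.40 and 2.20 CPM at 0 h, 0 and 0.316 after 6 h and 0.828 and 0.991 after 72 h (2.03 ± 0.60, adjusted p = 0.00875). The size of this change was 1.51 without 6 h replicate 1 and 7.57 without 6 h replicate 2. Without 72 h replicate 2, the change at this site was 1.97 and its call was lost. A site in NLRP7 had 3.31 and 2.39 CPM at 0 h, 0.512 and 0.475 after 6 h and 1.66 and 1.49 after 72 h. A site 81702 bases from CPEB2 on chromosome 4 had 2.53 and 3.97 CPM at 0 h, 0.341 and 0.918 after 6 h and 2.10 and 2.50 after 72 h. At all 4 the lowest libraries were those of 6 h, and the rule that picked these sites required them to lie below those of 72 h.

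The 10 sites with the highest 0 h CPM were inside or beside genes of varied function, and 3 of them lay on chromosome 22. The highest was in TANGO2, at chr22:20025235-20025890, with 68.6 and 43.4 CPM at 0 h, 10.2 and 12.6 after 6 h and 9.37 and 10.8 after 72 h. Next was a site in RSPH14, 2842 bases from an end of BCR, at chr22:23177122-23177667, with 65.8 and 40.8 CPM at 0 h, 14.3 and 9.65 after 6 h and 10.9 and 10.2 after 72 h. At both, the 6 h and 72 h libraries overlapped (log2 fold changes of −0.19 ± 0.20 and −0.15 ± 0.21 SE, adjusted p = 0.464 and 0.587). The third on this chromosome was in DGCR8, a subunit of the microRNA-processing complex, with 29.1 and 33.2 CPM at 0 h, 16.2 and 12.6 after 6 h and 8.49 and 6.84 after 72 h. K562 cells are known to carry extra copies of parts of chromosomes 9 and 22, and the part of copy number in these levels was not tested.

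A site 40586 bases from GPC5, a glypican gene, at chr13:91357024-91358035 had 31.8 and 57.2 CPM at 0 h, 11.3 and 8.99 after 6 h and 1.79 and 1.04 after 72 h, a change of −2.83 ± 0.28 from 6 to 72 h (SE, adjusted p = 3.44e-07). A site 10153 bases from HSPA1B, a gene of the inducible heat shock protein HSP70, had 30.5 and 48.1 CPM at 0 h, 10.6 and 13.2 after 6 h and 4.3 and 4.13 after 72 h. HSPA1B has a near-identical neighbour, HSPA1A. The site lay outside both genes, and whether its reads map to a single place was not tested. The TRIM67 site had 42.6 and 24.7 CPM at 0 h, 5.63 and 3.96 after 6 h and 3.70 and 3.02 after 72 h. A site in ANO10, 3530 bases from ABHD5, had 31.6 and 28.4 CPM at 0 h, 4.69 and 3.42 after 6 h and 2.46 and 2.67 after 72 h. The remaining 3 of the 10 were the DSTYK site above and the PTMA and DIPK1B sites below. The 0 h libraries differed by over 1.5 times at 7 of the 10, and each treated library lay below both. The latter held at 96.7% of the 3167 sites at 6 h and 99.1% at 72 h, against 31.8% and 36.6% of all sites.

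The sites were rarely at gene ends. Of 3156 sites on chromosomes with annotated genes, 219 (6.94%, Wilson 95% interval 6.10 to 7.88) lay within 1000 bases of an end, on either side, of a protein-coding gene. This held for 10.7% of all sites, 25.0% of those with peaks in both 0 h libraries, 31.5% of those with 6 peaks and 5.92% of those with none. The share was 5.78% for sites with a peak in 0 h replicate 1 alone and 8.13% for 0 h replicate 2 alone. With both 0 h peaks and a single treated peak, it was 7.17% and 7.56% for 72 h replicates 1 and 2. For 6 h replicates 1 and 2 it was 12.0% and 12.3%. Sites with peaks only in both 72 h libraries had 3.50%. A low share was thus not particular to these sites. Only 83 (2.63%) lay within 1000 bases of a listed gene start, against 7.75% of all sites and 26.6% of those with 6 peaks. RefSeq starts were listed for 15842 of 20052 protein-coding genes, so these start shares are lower bounds. Sites within a gene made up 55.3%, against 54.5% of all sites and 64.7% of sites with 6 peaks. The median distance to the nearest gene end was 19407 bases, against 21655 for all sites and 8618 for sites with 6 peaks, and 27.2% were over 50000 bases away. Sites are not replicates, so these shares are given without a test, and the interval covers counting error only.

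**Figure D4:**
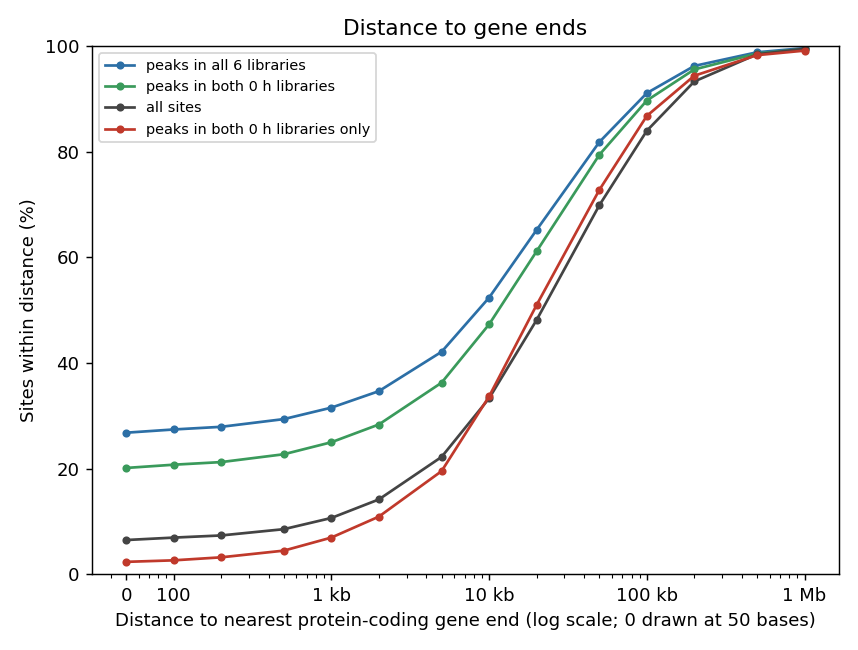
Cumulative share of sites (y axis, %) within a given distance of the nearest end of a protein-coding gene (x axis, log scale). Sites open at 0 h only (red) start lowest, with 6.94% within 1 kb, while 25.0% of the sites open in both 0 h libraries (green) and 31.5% of those with peaks in all 6 (blue) lie within 1 kb.

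Among the sites at gene ends, the strongest was 196 bases from the end of PTMA, the gene of prothymosin alpha, a nuclear protein of dividing cells. At chr2:231713747-231715638 it had 27.4 and 49.7 CPM at 0 h, 14.0 and 18.8 after 6 h and 7.2 and 6.14 after 72 h, and was lower at 72 h than at 6 h by the model (−1.32 ± 0.23 SE, adjusted p = 0.000101). PTMA has processed copies elsewhere in the genome. The site lay outside the gene, and whether its reads map to a single place was not tested. The DIPK1B site on chromosome 9 had 27.5 and 36.7 CPM at 0 h, 6.65 and 4.37 after 6 h and 1.68 and 1.56 after 72 h.

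A site at TRNAU1AP, a gene for selenocysteine insertion, at chr1:28577054-28577960 had 20.8 and 33.3 CPM at 0 h, 12.6 and 7.97 after 6 h and 2.61 and 2.17 after 72 h (−2.07 ± 0.26 SE from 6 to 72 h, adjusted p = 3.25e-06). SPATC1L on chromosome 21 had 30.2 and 22.6 CPM at 0 h, 5.12 and 3.51 after 6 h and 2.54 and 2.74 after 72 h. NOL8, a nucleolar protein gene, had 24.2 and 28.6 CPM at 0 h, 7.67 and 10.2 after 6 h and 5.23 and 6.35 after 72 h. WDR38 had 12.5 and 29.8 CPM at 0 h, 7.59 and 10.9 after 6 h and 3.24 and 3.54 after 72 h. All 6 of these gene-end sites were called lower at 72 h than at 6 h, where 38.9% of the tested members and 20.9% of all tested sites were. They were picked for their 0 h strength, so nothing about gene ends is read from this count.

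Most of the sites stood alone among their kind. Only 233 (7.36%) had another of the 3167 within 10000 bases. They formed 112 clusters, 103 pairs and 9 triplets, with none larger. For sets of a similar size, the share was 8.68% for the 2974 sites with a peak in 0 h replicate 1 alone, 10.0% for the 3638 with one in 0 h replicate 2 alone, and 11.9% for the 3451 with one in 6 h replicate 2 alone. With gaps of up to 50000 bases, 830 sites were in clusters, the largest of 5 sites. Other open sites were near: the median gap to any listed site was 2377 bases.

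The triplet with the highest mean 0 h CPM was in TANGO2 and spanned 13388 bases, in which 3 of 5 listed sites were members. Besides the strong site given above, it held a site at 10.98 and 9.42 CPM at 0 h, 3.92 and 3.13 after 6 h and 1.01 and 0.661 after 72 h. Its last site had 8.51 and 6.26 CPM at 0 h, 4.95 and 4.34 after 6 h and 1.58 and 1.46 after 72 h. These 2 sites were called lower at 72 h than at 6 h (−2.05 ± 0.31 and −1.59 ± 0.28 SE, adjusted p = 2.03e-05 and 0.000102), unlike the strong site, and the difference between them was not tested.

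A triplet at PLEKHA4 and PPP1R15A on chromosome 19 held 3 of 8 listed sites, and its strongest site had 10.3 and 11.2 CPM at 0 h, 5.20 and 7.28 after 6 h and 3.08 and 4.25 after 72 h. PPP1R15A encodes GADD34, a phosphatase subunit of the stress response. Beside MAP1LC3B2 on chromosome 12, all 3 of the listed sites in 8576 bases were members, the strongest with 8.58 and 10.3 CPM at 0 h, 6.74 and 6.71 after 6 h and 3.81 and 3.37 after 72 h. Near MAGEA8, a cancer-testis antigen gene on chromosome X, all 3 listed sites in 7750 bases were members, at 3.90 to 5.33 CPM at 0 h, 0.411 to 1.88 after 6 h and 0.259 to 0.932 after 72 h. Of the 5 listed sites in a stretch 264612 bases or more from TRIB2 on chromosome 2, 3 were members. The other 4 triplets, named after their values were seen, were at AQP9, AHSP, RBMXL2 with NLRP14, and HES1, and in the last 3 of these all 3 listed sites were members.

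Assigned to genes they lay in or to a gene end within 50000 bases, 2692 sites belonged to 2426 genes and 475 to none. Of these genes 2049 had 1 site. PLXNA2, the gene of a semaphorin receptor, had the most, with 6 of the 21 sites at it that carried both 0 h peaks. They had 2.29 to 5.85 CPM at 0 h, 0.938 to 1.88 after 6 h and 0.425 to 1.42 after 72 h, so each was weak. MYO3B (5 of 23), an unconventional myosin, and MAD1L1 (5 of 21), a spindle checkpoint gene, followed. NAV1 had 4 of 21 and TEAD1, a transcription factor of the Hippo pathway, 4 of 23. These are long genes with many listed sites, and their counts were not compared with gene length.

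At the 19 genes of erythroid and haematopoietic regulators, 12 of the 117 sites with both 0 h peaks were members (10.3%), at 8 genes, beside 6.29% of all such sites. At the 47 genes of globins, haem synthesis, iron uptake and the red cell membrane, 20 of 177 were (11.3%), at 12 genes. These shares describe lists drawn up with earlier results known, and sites of 1 gene share their locus. From 6 to 72 h, 4 of the 12 and 12 of the 20 were called lower and 0 higher in either list, where 38.9% of the tested members and 20.9% of all tested sites were lower, with medians of −0.75 and −1.20, beside −0.80 for the 3162 tested members and 0.03 for all tested sites.

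Among the regulators, the strongest site was in LDB1, which bridges enhancers and promoters in complexes with GATA1 and TAL1. At chr10:102112183-102112841 it had 20.02 and 18.1 CPM at 0 h, 4.35 and 3.51 after 6 h and 2.20 and 1.58 after 72 h (−1.03 ± 0.26 SE from 6 to 72 h, adjusted p = 0.0029). GFI1B had 2 members of 7 sites with both 0 h peaks. The site 5544 bases from its end had 13.5 and 13.4 CPM at 0 h, 3.75 and 4.68 after 6 h and 3.62 and 3.61 after 72 h. The site over the GFI1B start whose sequence is shown above had 12.6 and 11.3 CPM at 0 h, 6.14 and 4.08 after 6 h and 3.21 and 3.47 after 72 h. Neither GFI1B site was called changed between 6 and 72 h (−0.25 ± 0.24 and −0.57 ± 0.25, adjusted p = 0.416 and 0.0735).

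The ZFPM1 site that holds the ZFPM1-AS1 start had 11.7 and 11.9 CPM at 0 h, 2.98 and 2.72 after 6 h and 1.14 and 1.13 after 72 h (−1.31 ± 0.28 SE from 6 to 72 h, adjusted p = 0.000726). TAL1, SOX6, CBFA2T3, BACH1 and MYB also had members: 3 at SOX6, a repressor of embryonic globin genes, and 1 at each of the others. The MYB site, near a gene that keeps progenitors dividing, was weak throughout, with 2.27 and 2.44 CPM at 0 h, 0.597 and 1.80 after 6 h and 1.37 and 1.65 after 72 h.

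In the globin and membrane list, the strongest site lay 379 bases from an end of TFRC, the transferrin receptor gene, at chr3:196047299-196048905. It had 17.5 and 23.8 CPM at 0 h, 2.98 and 4.62 after 6 h and 1.06 and 1.51 after 72 h (−1.61 ± 0.29 SE from 6 to 72 h, adjusted p = 0.00012). In the beta-globin cluster, a site 14568 bases from HBE1 at chr11:5284513-5285036, on the side of the locus control region, had 22.4 and 11.1 CPM at 0 h, 5.71 and 3.1 after 6 h and 3.88 and 5.00 after 72 h. The site over an end of HBE1, the embryonic globin gene, had 5.91 and 3.49 CPM at 0 h, 2.13 and 2.09 after 6 h and 0.647 and 0.684 after 72 h. That over an end of HBB had 5.00 and 4.398 CPM at 0 h, 0.938 and 1.04 after 6 h and 0.906 and 0.944 after 72 h. Of the 3, the model called the HBE1 end lower at 72 h than at 6 h (−1.65 ± 0.37, adjusted p = 0.00112), and the other 2 gave 0.09 ± 0.31 and −0.12 ± 0.37 (adjusted p = 0.838 and 0.819). With a site at OR51B4 they made a group of 4 in 66354 bases.

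AHSP, which encodes the chaperone of alpha-globin, had 3 of its 4 sites with both 0 h peaks in the set, all within 8709 bases. They had 2.34 to 6.76 CPM at 0 h, 0.512 to 2.39 after 6 h and 0.260 to 0.595 after 72 h. The glycophorin gene GYPB had 3 members of its 7 sites with both 0 h peaks, and GYPC 1 of 5. The GYPC site had 10.7 and 10.1 CPM at 0 h, 0.938 and 0.981 after 6 h and 0.854 and 0.614 after 72 h, so it was near its 72 h level by 6 h. SPTB, the beta-spectrin gene, EPB41, KEL and HEMGN had 1 member each.

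**Figure D5:**
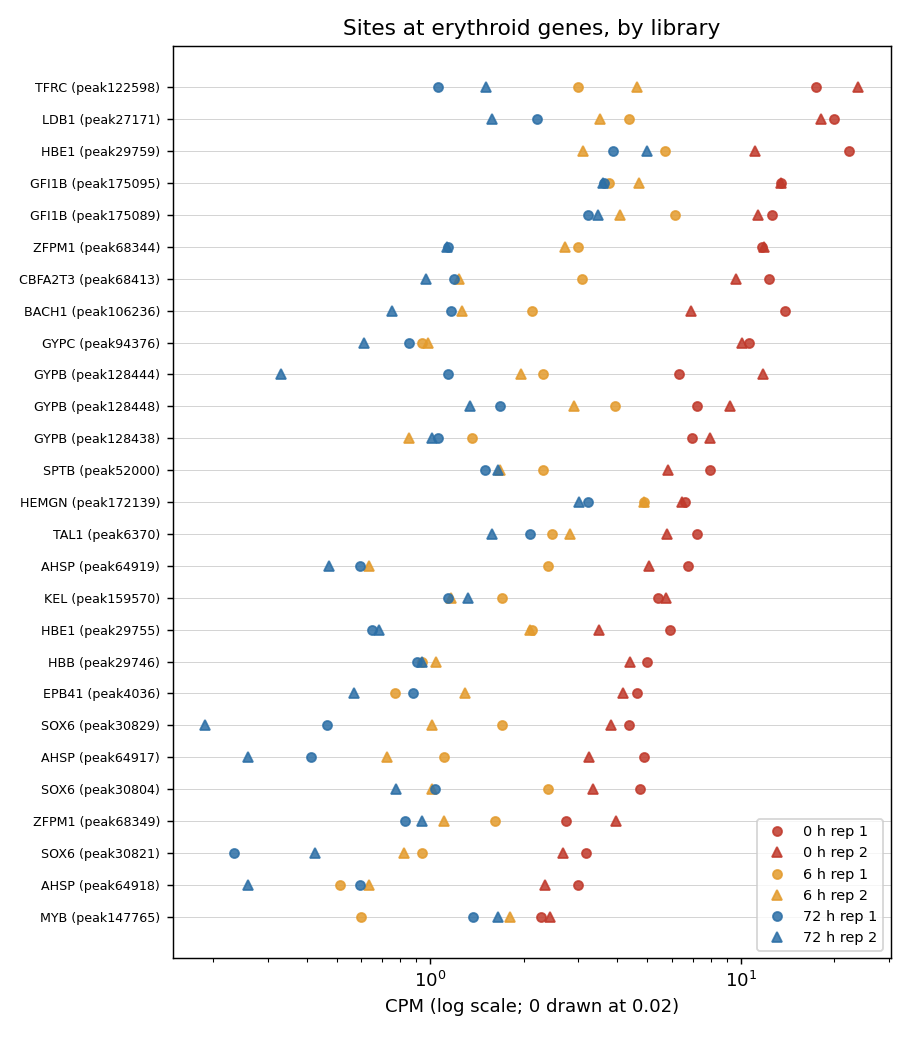
CPM (x axis, log scale) of 27 of the members at genes of the erythroid regulator list and the globin and membrane list (y axis, by mean 0 h CPM), with 0 h in red, 6 h in orange and 72 h in blue (circles replicate 1, triangles replicate 2). At TFRC, LDB1 and ZFPM1 the 72 h libraries are left of the 6 h libraries, while at GYPC and HBB the treated libraries lie close together.

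At the 33 genes of proliferation and MYC, 10 of 108 sites with both 0 h peaks were members (9.26%), and 5 of the 10 were called lower from 6 to 72 h, where 38.9% of the tested members and 20.9% of all tested sites were. A site in CCND3, the gene of cyclin D3, at chr6:42045542-42046058 had 20.1 and 18.7 CPM at 0 h, 3.33 and 5.70 after 6 h and 4.69 and 4.46 after 72 h (−0.04 ± 0.24 SE from 6 to 72 h, adjusted p = 0.902). A site 1660 bases from PIM1, a kinase gene downstream of cytokine signals, had 14.4 and 22.9 CPM at 0 h, 2.30 and 5.54 after 6 h and 0.958 and 1.11 after 72 h (−2.02 ± 0.34, adjusted p = 6.78e-05). BUB1, a spindle checkpoint kinase, had 14.6 and 8.37 CPM at 0 h, 3.67 and 4.37 after 6 h and 3.37 and 3.26 after 72 h. Of these the PIM1 site alone passed the test from 6 to 72 h.

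At 25 megakaryocyte and platelet genes, 3 of 64 sites with both 0 h peaks were members (4.69%), at ITGA2B, VWF and CD9. The ITGA2B site, in the gene of the platelet integrin αIIb, had 4.03 and 4.398 CPM at 0 h, 2.13 and 2.09 after 6 h and 0.906 and 1.30 after 72 h. Immediate early and AP-1 genes had 5 of 79 (6.33%), at MAFK, DUSP6, FOSL2 and FOS, all but the MAFK site at 5.65 CPM or less at 0 h. Housekeeping genes had 3 of 38 (7.89%), at PPIA, YWHAZ and TBP, beside 6.29% of all sites with both 0 h peaks. As markers of other cell types, monocyte and granulocyte genes had 3 of 26 (11.5%), at CEBPB, CEBPA and ITGAX, and lymphoid genes 0 of 11. The CEBPB site had 9.81 and 6.84 CPM at 0 h, 2.22 and 3.1 after 6 h and 1.48 and 1.75 after 72 h.

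Open sites of other kinds were about as near to the members as to other sites open at 0 h. A site without a 0 h peak but with both 72 h peaks lay within 10000 bases of 1537 members (48.5%), beside 47.6% of sites with both 0 h peaks and 52.2% of all sites. A site with peaks in all 6 libraries lay as near to 44.9%, beside 44.4% and 36.5%. The nearest listed site of a member had peaks in all 6 libraries in 22.2% of cases and had no 0 h but both 72 h peaks in 27.3%, where such sites are 19.8% and 33.1% of the list. Members were found on all chromosomes, from 4.07% of the sites with both 0 h peaks on chromosome 19 to 7.69% on chromosome 18, leaving out chromosome Y with 2 of 18.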

How the data were processed

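ATAC-seq of K562 cells gave 6 libraries, 2 each at 0, 6 and 72 h of PMA. The authors deposited whole-number read counts for 181135 sites, without normalization as far as the values show, with their own log2 fold changes, adjusted p-values and class names, and a peak list per library. Per the submitters' processing notes, the tools included Trim Galore 0.4.3, BWA 0.7.17, SAMtools 1.9, MACS2 and bedtools 2.26, with hg38. The roles and settings of these tools, the filters, and whether read ends were shifted for the transposase, are not given in the sources used here. In the deposited lists the peak score, the fold enrichment (a ratio over background) and the −log10 p and q are the authors' values, used to order or select peaks inside 1 list.

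A site had a peak where they overlapped by 1 base or more. The site counts were fitted with edgeR 4.0.16 (R 4.3.3, quasi-likelihood, TMM, default filter with a minimum count of 10, 177759 sites kept) on all 6 libraries, with a call at a Benjamini-Hochberg adjusted p under 0.05 over all tested sites. CPM are counts scaled to 1e+06 per library with TMM factors. Values are given for each library, n = 2. The square root of the common dispersion was 0.166. On simulated counts for 72 h against 6 h (177759 sites), the fit recovered 16% of 100 sites set to a log2 change of 1. It recovered 58% of 100 set to 2, with 2 false calls. All other simulated sites were unchanged, whereas 20.9% of the real tested sites were called lower and 22.1% higher. The adjustment of p-values depends on that share, so these figures do not give the recovery or false calls of the reported test.

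Genes and promoters came from RefSeq tables of GRCh38.p14, matched by position. A cluster is a run of members with gaps of at most 10000 bases. No genome was used, so the motif search planned over sites was run on promoter windows only. Sites named are the 10 strongest, the 6 strongest at gene ends, the 5 leading clusters, the 6 genes with most members, the strongest 3 of each list, the 4 highest and 4 lowest at 72 h against 6 h among calls without overlap, and the 3 weakest and 3 strongest 0 h peaks. A few genes that this rule or the lists hold are not reported here. Other names were chosen after their values were seen. The members and gene lists were chosen with earlier results of these data known. Alternatives covered scaling, filter, DESeq2 1.42.0, replicate block, libraries left out, peak thresholds, overlaps, reach and gaps.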

Additional observations from a re-analysis of the deposited data

Results flagged for a closer look

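Between 6 and 72 h, 1229 of 3162 tested sites were lower and 30 higher in edgeR's quasi-likelihood test (adjusted p under 0.05). These were 38.9% and 0.949%, where 20.9% of all tested sites were lower and 22.1% higher. Of the tested sites with both 0 h peaks 48.4% were lower, and of those with 6 peaks 57.5%, so nothing particular to the 3167 sites is read from the count. At an unadjusted p under 0.05 the counts were 1498 and 41, beside 27021 and 3448 of the 50258 tested sites with both 0 h peaks. The share over all tested sites was not taken at this threshold. Single sites were picked out by the same test. The lowest log2 fold changes at 72 h against 6 h were −4.0 in ROCK2, −3.90 at the site 660216 bases from UQCRFS1, −3.63 in ZFPM2 and −3.56 in CDK5RAP2. The highest were 2.22 in MYO5B, 2.03 at the site 70607 bases from TMEM200A, 1.68 in NLRP7 and 1.67 at the site 81702 bases from CPEB2. In all 8 the libraries of the groups did not overlap, which was part of the rule that picked them.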

How the results depend on the processing

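Numbers called lower at 6 h and at 72 h against 0 h stayed within 1.5 times of those reported under every alternative run. With factors from the sites with 6 peaks, the 0 called higher became 2 at 6 h and 20 at 72 h. Of all tested sites, 29.6% and 57.8% were then called higher. With total counts it became 5 at 72 h, where 48.0% of all were. At 72 h against 6 h, 1229 were lower and 30 higher (38.9% and 0.949%, where 20.9% and 22.1% of all tested sites were). Total counts gave 653 lower and 89 higher (20.7% and 2.81%, background 11.5% and 32.1%). Factors from the sites with 6 peaks gave 341 and 197 (10.8% and 6.23%, background 5.24% and 43.3%). An adjusted p under 0.01 with an absolute log2 fold change above 1 gave 668 and 11 (background 8.56% and 14%). Loess offsets gave 1700 lower and 15 higher (53.8% and 0.474%, background 17.3% and 17.3%). DESeq2 gave 1021 and 17 (32.2% and 0.537%, background 17.1% and 13.8%). Leaving out 1 library gave 515 to 1293 lower and 13 to 34 higher. The number of members, 3167, became 3302 to 6805 when 1 library was left out of the rule, the share at gene ends 6.38% to 7.95% and the share near another member 7.78% to 14.5%. Without 0 h replicate 1 the rule gave 6805 members, and without 0 h replicate 2 6141, with fewer 0 h libraries required by construction. The gene end share was 4.47% within 500 bases and 19.5% within 5000 bases, and the share near another member 3.57% for gaps of 5000 bases and 26.2% for 50000. The median 0 h strength was 3.43 CPM with total counts, 7.09 CPM per kilobase, and percentile 33.2 by the authors' fold enrichment. The site near TMEM200A lost its call (2.03) without 72 h replicate 2 (1.97). Without members on chromosomes 9 and 22, chosen after seeing the data, 1142 of 2966 were lower and 29 higher. With these chromosomes kept, 20.9% and 22.1% of all tested sites were.

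Across sites, the differences between the replicates of a group were only weakly correlated between time points (r = 0.0820, 0.0533 and 0.0854). Counting noise at sites with few reads also lowers r, so these values cannot show whether same-numbered libraries belong together. Whether they were prepared together was not tested. With the replicate number as a block, 2723 and 3077 sites were lower at 6 h and 72 h against 0 h, and 1323 lower and 32 higher at 72 h against 6 h. Depth limits the treated values most at 6 h replicate 1, where the median site had 16 counts and 686 sites had under 10. For causes of the differences between settings, no test was made: the cause was not tested.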

Other observations

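The authors' deposited table gives each site a class name, and these names did not follow the direction of the values at the 3167 sites. Of them, 1593 (50.3%) were in classes named for a rise (1245 upLate and 348 upEarly), 676 (21.3%) in classes named for a fall and 898 were static. All 1593 had a negative log2 fold change at 72 h in the authors' deposited table, with medians of −2.82 for upLate and −2.84 for upEarly, beside −2.86 for downEarly and −3.09 for downLate. Across all sites, the authors' deposited table had a median log2 fold change at 72 h of 2.28 for upLate and of 2.257 for downEarly. How the classes were made is not given in the sources used here, so they were not used to group sites.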
